A study of Mus musculus with 14 samples.

Results

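Livers of lsPERK mice and of wild-type (WT) mice that received DMSO and no tunicamycin were compared by microarray. This describes the difference in liver mRNA between the genotypes and how large a difference could have gone unseen. The groups were also unequal in the signal of Xist (below), so genotype was not their only difference. The comparison rests on 6 of the 14 samples of the series, chosen by their titles. These are 3 lsPERK control and 3 WT control liver samples, each on 1 oligonucleotide array. All 6 received 0.3% DMSO, and the time between DMSO and collection is not given. The other samples, 4 of each genotype taken 6 h after 1 mg/kg tunicamycin, enter neither group mean. They share the limma fit of all 14 arrays, so their spread enters the standard errors and p-values. Their genotype difference was measured under the drug and is given beside the control difference. The series' design text calls the genotype a knock-out. The labels do not spell out lsPERK and do not say which exons were removed, which Cre or promoter was used, or the strain, age or sex of the mice. Whether each replicate is a different mouse is not stated either. Each control group held arrays with high and with low Xist signal, so its arrays did not all come from 1 mouse. The p-values reflect the spread between these samples, and how much of it is technical was not tested.

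PERK, encoded by Eif2ak3, is a kinase in the membrane of the endoplasmic reticulum (ER). When unfolded proteins build up there, it phosphorylates the translation initiation factor eIF2, which lowers general protein synthesis but favours translation of the transcription factor ATF4. ATF4 then raises genes of amino acid supply, redox control and the CHOP programme, while the parallel sensors ATF6 and IRE1 raise chaperones and degradation factors. Hepatocytes secrete most plasma proteins and so have a heavy load in the ER even without a drug.

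The arrays resembled each other by the signal of Xist, the noncoding RNA of the inactive X, more than by genotype. Xist was high on 1 of 3 WT control arrays (replicate 1) and on 2 of 3 lsPERK control arrays (replicates 1 and 2), and the Y-linked gene Eif2s3y was high on the others. Correlations were taken over the 10963 genes expressed in control liver (defined below). The 6 pairs of control arrays with the same Xist status had r = 0.975 to 0.978. The 9 pairs with different status had r = 0.95 to 0.96. Pairs within a genotype ran from 0.95 to 0.975 and pairs between genotypes from 0.952 to 0.978. The array medians of the deposited intensity were 34.4 to 37.6 in WT control and 38 to 51.3 in lsPERK control, and quantile normalization removed that offset. For β-actin the signal of the 3′ end over that of the 5′ end, which is lower in intact RNA, was on the log2 scale 1.09 ± 0.14 (SD, n = 3) in WT control and 0.87 ± 0.25 (SD, n = 3) in lsPERK control.

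Eif2ak3 was lower on every lsPERK control array than on any WT control array. Its brightest probe set (1449278_at) read 240, 443 and 362 on the 3 WT control arrays, in normalized intensity units. On the 3 lsPERK control arrays it read 157, 137 and 127. The groups did not overlap, and the lowest WT array was replicate 1. The log2 difference was −1.27 (SE 0.20, 95% confidence interval −1.71 to −0.84), a 2.42-fold lower signal. Its unadjusted p of 1.52e-05 was the smallest of any gene expressed in control liver, but the Benjamini-Hochberg adjusted p over all probe sets was 0.261 by limma, so the difference was not called. An exact two-sided permutation test of the 6 values gave p = 0.1, the smallest that 3 against 3 samples allow. Without WT control replicate 1 the difference was −1.52 and passed the threshold (limma adjusted p = 0.0345). On the Xist-low arrays alone, 2 WT and 1 lsPERK, it was −1.66 (limma adjusted p = 0.00706), and on the Xist-high arrays alone, 1 WT and 2 lsPERK, it was −0.71 (limma adjusted p = 0.378). In those fits the lone array was assumed to vary like the other groups. On the separate arrays of tunicamycin-treated liver the difference was −2.75 (SE 0.18, limma adjusted p = 9.9e-08), and it exceeded the control difference by 1.48 on the log2 scale (limma adjusted p of the interaction = 0.00359).

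The other probe sets of Eif2ak3 carried little signal in control liver. One (1430371_x_at) differed by −1 on the log2 scale (exact two-sided permutation p = 0.4), and the other (1453505_a_at) differed by −0.26 (exact permutation p = 0.8). All control readings of both lay below 41.5, the pooled median of all values, which is also the threshold above which a gene is called expressed here. A probe set outside the deleted part of the gene need not show the deletion, and where these lie relative to the deletion is not given. Genes next to Eif2ak3 in the RefSeq annotation of assembly GRCm38.p6 were measured too: the 8 with a probe set above the threshold differed by −0.42 to 0.45 on the log2 scale, and none of the 8 was called. The stress gene Gadd45a, at the upper end of that range, reached an unadjusted p of 0.0132.

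**Figure D1:**
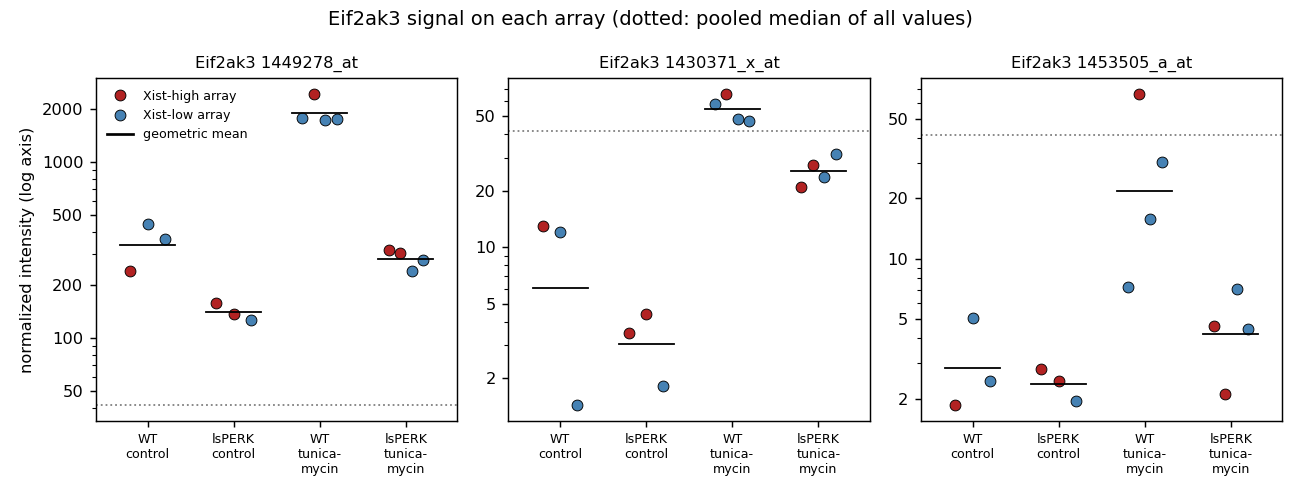
Normalized intensity (log axis) of the 3 Eif2ak3 probe sets on each array of the 4 groups, coloured by Xist status, with the geometric mean of each group as a bar and the pooled median of 41.5 as a dotted line. In the brightest probe set the lsPERK control arrays (127 to 157) lie below the WT control arrays (240 to 443), and the other probe sets lie under the dotted line in both control groups.

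The remaining eIF2 kinases did not pass the test, and their intervals exclude a 2-fold change either way. Eif2ak1, the heme-regulated kinase, read 785, 775 and 833 in WT control and 582, 768 and 889 in lsPERK control, a log2 difference of −0.12 (95% interval −0.45 to 0.21). Eif2ak2, the kinase PKR that binds double-stranded RNA, differed by −0.02 (−0.46 to 0.42). Eif2ak4, the amino acid sensor GCN2, differed by −0.04 (−0.45 to 0.37). The groups overlapped for all of these. Both phosphatase subunits that reverse eIF2 phosphorylation were also close: the inducible Ppp1r15a (GADD34) read 258, 284 and 360 against 242, 299 and 296, a difference of −0.10 (−0.39 to 0.19), and the constitutive Ppp1r15b differed by 0.09 (−0.23 to 0.40). Over the 15 expressed genes of eIF2, its exchange factor eIF2B and the phosphatase, the median difference was −0.06, against −0.02 over all expressed genes. All 15 intervals lay within 2-fold. Eif2s1, a gene of eIF2 itself, was not among them, as no single-gene probe set was matched to it.

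Across the whole array no probe set was called between the control genotypes: 0 of 45037 (0%) had a limma adjusted p under 0.05. At an unadjusted p under 0.05 there were 2316 (5.14%), of which 1215 (2.7%) were higher and 1101 (2.44%) lower in lsPERK. Gene statements use the brightest single-gene probe set of each gene, and 10963 genes were expressed, meaning that their mean over the 6 control arrays exceeded the pooled median. Among these, 417 (3.8%) had an unadjusted p under 0.05. The 3 lsPERK values all lay above the 3 WT values in 301 genes (2.75%) and all below in 507 (4.62%), 7.37% in all. Shuffling 6 distinct values into groups of 3 separates the groups with a probability of 0.1, so lack of overlap alone is weak evidence. A difference of at least 2-fold was estimated for 48 genes (0.438%) in the higher direction and 59 (0.538%) in the lower. By contrast, the tunicamycin-treated arrays, 4 against 4, gave 6501 probe sets called between genotypes (14.4%; 7.38% higher and 7.05% lower in lsPERK), and the difference between the genotype differences was called for 3030 (6.73%).

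The 95% intervals bound the size of the difference between the genotypes in these 6 samples. For 9242 of the 10963 expressed genes (84.3%) the whole interval lay within a 2-fold change either way, and for 5977 (54.5%) within 1.5-fold. The median half-width was 0.406 on the log2 scale, or 1.33-fold, with quartiles of 0.299 and 0.588. Precision followed level. With expressed genes split by level into 4 classes of equal size, 59.4% of intervals lay within 2-fold in the dimmest class (means of 41.5 to 146), and 88.5%, 94.3% and 94.9% in the classes above it. Among the 23107 probe sets under the threshold only 3.3% did, so for genes not expressed in control liver these arrays set almost no limit. To be called alone among 45037, a probe set would have needed an unadjusted limma p-value of 1.11e-06. For the median expressed gene that corresponds to a log2 difference of 1.49 (2.82-fold), and in the brightest class to 1.01 (2.02-fold). A gene changed by 1.5-fold could therefore stay uncalled in this comparison.

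**Figure D2:**
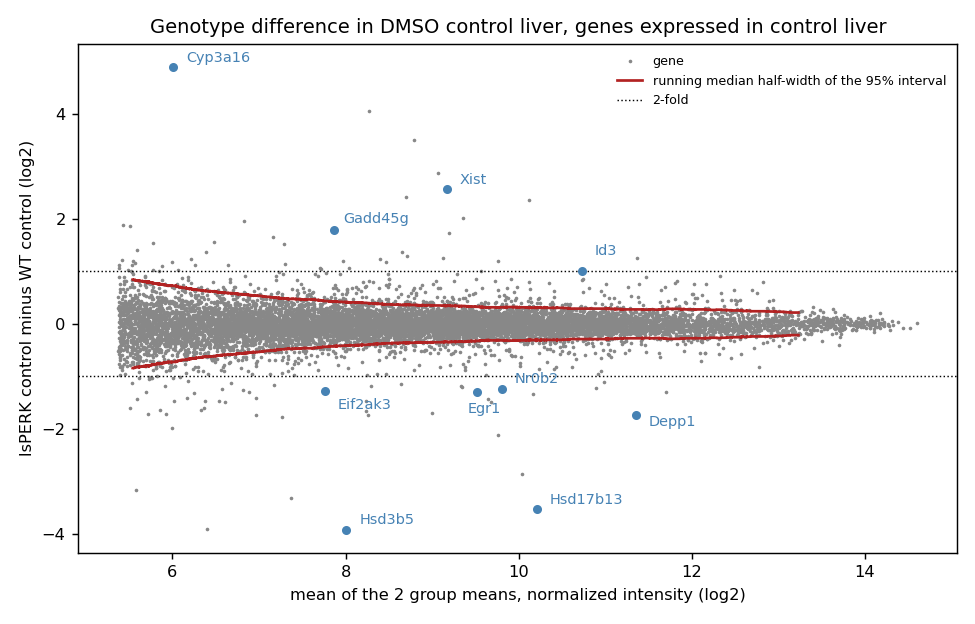
Each grey point is 1 of 10963 genes expressed in control liver, with the mean of both group means (normalized intensity, log2) on the x axis and lsPERK control minus WT control (log2) on the y axis. Red lines mark the running median half-width of the 95% interval, which narrows as level rises, and dotted lines mark 2-fold. Eif2ak3 and 9 other genes of the text are labelled.

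ATF4 and its target genes, the programme that PERK switches on, showed no called difference without the drug. The list held 31 expressed genes. Of these, 11 differed upward and 20 downward, with a median of −0.08 against −0.02 over all expressed genes, and 0 were called. At an unadjusted p under 0.05 there were 1 higher and 2 lower, where 1.63% and 2.17% of all expressed genes passed in those directions, and 21 of the 31 intervals lay within 2-fold. The same list on the tunicamycin-treated arrays had a median genotype difference of −1.47. The lists were chosen with earlier results of these data known, so no count over a list is independent evidence of its direction.

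Atf4 itself read 2180, 2351 and 2359 in WT control and 2469, 4016 and 2012 in lsPERK control. Replicate 2 of lsPERK stood above the other control arrays and the groups overlapped, with a log2 difference of 0.24 (SE 0.18, 95% interval −0.15 to 0.63). On the treated arrays the Atf4 difference was −1.55 (limma adjusted p = 8.75e-06). Ddit3, which encodes the pro-death transcription factor CHOP, read 191, 271 and 251 in WT control and 273, 211 and 218 in lsPERK control, a difference of −0.01 (SE 0.16, −0.35 to 0.32). Its readings were thus interleaved at baseline, whereas under tunicamycin they were 15150 to 16845 in WT and 1065 to 1499 in lsPERK, a difference of −3.68 (limma adjusted p = 8.66e-10). Trib3, a pseudokinase induced by CHOP and ATF4, read 174, 69.9 and 162 against 125, 179 and 103, a difference of 0.07 (−0.55 to 0.69).

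For several other ATF4 targets the interval reached beyond 2-fold. Asns, which makes asparagine, read 18.9, 360 and 421 in WT control and 37.8, 39.4 and 62.8 in lsPERK control. The WT array with the low reading was the Xist-high one, and the log2 difference was −1.65 with an interval from −3.53 to 0.24. With Xist status as a covariate the difference was −1.02 (SE 0.57, limma adjusted p = 0.925). Within the Xist-low arrays, with 1 lsPERK array, it was −2.63. Within the Xist-high arrays, with 1 WT array, it was 1.03, so the sign was not the same in both. Chac1, which degrades glutathione, differed by −0.79 (−1.94 to 0.35) and Fgf21, a fasting hormone secreted by the liver, by −0.59 (−1.63 to 0.44). One WT array carried most of the Fgf21 signal, with readings of 79.4, 39.4 and 221 in WT control and 60.8, 49.3 and 67.2 in lsPERK control. The stress transcription factor Atf3 differed by 0.51 (−0.39 to 1.40). With Xist status as a covariate Atf3 differed by 0.21 (SE 0.26), Chac1 by −0.78 (SE 0.56) and Fgf21 by −0.74 (SE 0.48). Sesn2, a brake on mTORC1, differed by −0.31 with an interval within 2-fold (−0.76 to 0.15). Psat1 of serine synthesis lay under the expression threshold in both groups.

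**Figure D3:**
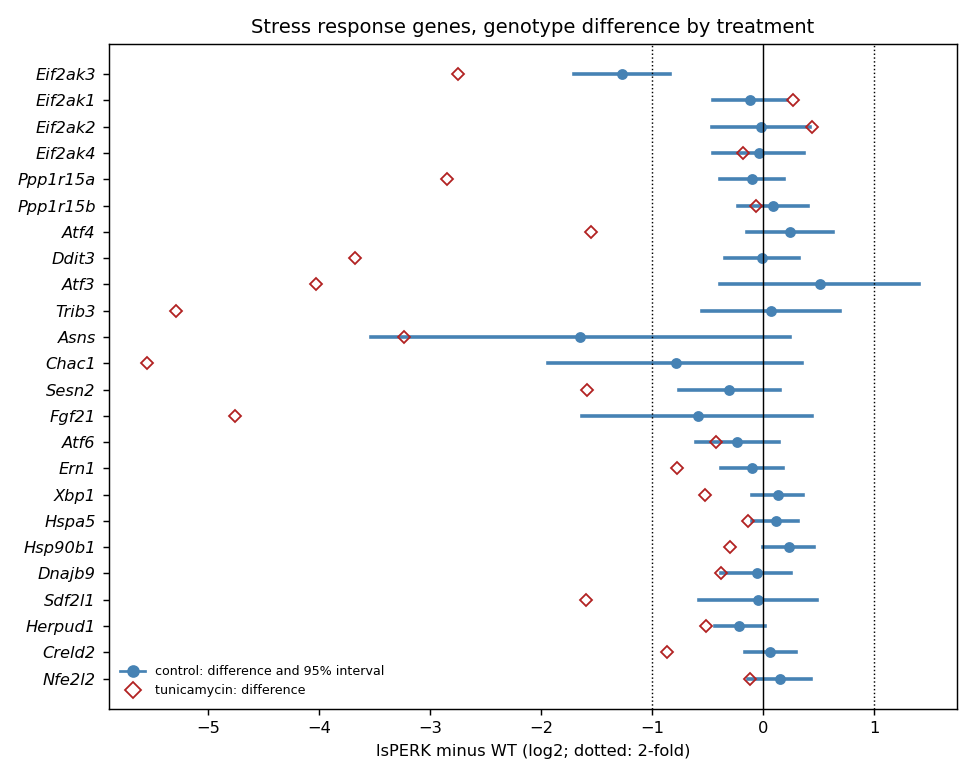
Genotype difference (lsPERK minus WT, log2) of 24 stress response genes in control liver, as points with 95% confidence intervals, and on the tunicamycin-treated arrays, as open diamonds. Under control the Eif2ak3 interval alone among the 24 lies wholly below 0, while under tunicamycin Trib3 (−5.29), Chac1 (−5.55) and Ddit3 (−3.68) lie far to the left.

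The ATF6 and IRE1 arms and the ER folding machinery were measured with narrow intervals and showed no called genotype difference. Atf6, whose product is cut in the Golgi to release a transcription factor, read 1310, 1388 and 1429 in WT control and 866, 1557 and 1180 in lsPERK control, a difference of −0.24 (−0.61 to 0.14). Ern1, which encodes IRE1, differed by −0.10 (−0.38 to 0.18) and its substrate Xbp1 by 0.13 (−0.10 to 0.36). All 10 expressed genes of the list of ER stress sensors and ATF6 processing had intervals within 2-fold, with a median difference of −0.03. Hspa5, the abundant chaperone BiP, read 7966, 9487 and 7308 against 8121, 8921 and 9503, a difference of 0.11 (SE 0.10, −0.10 to 0.31). Over 29 expressed ER chaperones and folding enzymes the median was 0.06 and all 29 intervals lay within 2-fold. Hsp90b1, which encodes GRP94, was the member nearest to the threshold in the higher direction, with 0.23 (SE 0.11, unadjusted p = 0.0498) and overlapping groups. Sdf2l1 and Creld2, which rise strongly in ER stress, differed by −0.05 (−0.58 to 0.48) and 0.06 (−0.17 to 0.29).

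Degradation, traffic and translation genes gave the same picture. The 24 genes of ER-associated degradation had a median of −0.01, with 12 above and 12 below 0, and all 24 intervals within 2-fold. Herpud1, a scaffold of that pathway, read 8519, 7802 and 9744 in WT control and 6586, 7246 and 8666 in lsPERK control, a difference of −0.22 (SE 0.10, unadjusted p = 0.0572). The 29 expressed genes of transport from ER to Golgi had a median of 0.03, and 28 intervals lay within 2-fold. The 19 cytosolic aminoacyl-tRNA synthetases, many of them ATF4 targets, had a median of −0.04 and 19 intervals within 2-fold. Cars, the cysteine enzyme, was the lowest of these at −0.50 (SE 0.18, unadjusted p = 0.0127), with readings of 444, 359 and 390 against 303, 237 and 304. Its groups did not overlap, yet on the treated arrays the difference was 0.36. The 26 cytosolic ribosomal proteins had a median of 0.07.

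The main products of the hepatocyte showed no called difference, with narrow intervals. The 22 secreted hepatocyte proteins ranged from −0.15 to 0.11 with a median of −0.03, and all 22 intervals lay within 2-fold. Alb, serum albumin, read 15498, 15563 and 16638 in WT control and 14425, 13465 and 16268 in lsPERK control, a difference of −0.11 (−0.33 to 0.10). Ttr, the thyroxine carrier transthyretin, differed by −0.02 (−0.17 to 0.13). The 35 subunits of oxidative phosphorylation ranged from −0.14 to 0.12 with a median of −0.01, and all 35 intervals lay within 2-fold.

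Metabolic lists showed small differences, none of them called. All 22 expressed genes of fatty acid oxidation and ketogenesis had an estimate below 0, against 5930 of 10963 expressed genes, with a median of −0.12. Decr1, a reductase of unsaturated fatty acid oxidation, was the one member with an unadjusted p under 0.05: it read 7627, 6712 and 8177 in WT control and 6386, 6429 and 6098 in lsPERK control, a difference of −0.25 (SE 0.10). These genes share their arrays, and the list median, as a deviation from each gene's mean, was 0.00, −0.08 and −0.13 on lsPERK control replicates 1, 2 and 3 and 0.13, −0.11 and 0.15 on the WT replicates, so the groups overlapped as lists. Cholesterol synthesis and uptake had a median of 0.30, with 15 of 17 members above 0 and 10 intervals within 2-fold. That median was 0.23 with Xist status as a covariate, 0.11 without lsPERK control replicate 1 and 0.49 without replicate 3. Insig1, which retains the SREBP escort in the ER when sterols are plentiful and is itself a target of SREBP, read 4065, 4083 and 2661 against 6774, 7394 and 4259. The groups did not overlap, with a difference of 0.76 (SE 0.23, unadjusted p = 0.0055, limma adjusted p = 0.903). Lipogenesis had a median of 0.08 and gluconeogenesis with glucocorticoid-induced genes one of −0.07.

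Bile acid synthesis and transport had a median of −0.18, with 17 of 19 members below 0 and 2 above; with Xist status as a covariate the median was −0.03. The lowest members were the uptake transporter Slco1a1 (−1.49), which belongs to the genes that differ between the sexes, and Nr0b2 (−1.24), which encodes SHP, the repressor induced by bile acids through FXR. Nr0b2 read 939, 1560 and 1787 in WT control and 732, 718 and 375 in lsPERK control. The groups did not overlap (SE 0.40, unadjusted p = 0.00717, limma adjusted p = 0.912). On the treated arrays the order was turned, with 59.1 to 241 in WT and 1667 to 2050 in lsPERK, a difference of 3.74 (limma adjusted p = 3.41e-06). Cyp7a1, the first enzyme of the classic bile acid pathway, differed by less than 0.01. The NRF2 antioxidant genes, another proposed arm downstream of PERK, had a median of −0.18 (−0.05 with Xist status as a covariate), and Nfe2l2 itself differed by 0.15 (−0.14 to 0.43).

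Immediate early genes, which respond within minutes to stimuli, were more variable than most, with a median interval half-width of 0.69 against 0.41 over all expressed genes. Of 19 expressed immediate early genes 16 lay above 0, with a median of 0.37, and only 5 intervals lay within 2-fold. That median followed 1 array: as a deviation from each gene's mean it was 0.79 on lsPERK control replicate 2 and −0.34 to −0.04 on the other 5, and without that replicate the list median difference was 0.10. Jun, a subunit of AP-1, read 237, 235 and 224 in WT control and 253, 1039 and 260 in lsPERK control. A single array thus set its difference of 0.82. Dusp1, a MAP kinase phosphatase, read 944, 728 and 1045 against 1290, 2146 and 1015. Cytosolic heat shock genes had a median of 0.09. Among them Hsp90aa1, the inducible cytosolic HSP90, read 4688, 5240 and 4487 against 7417, 6103 and 6179, a difference of 0.45 (SE 0.13, unadjusted p = 0.00455). Its groups did not overlap, and on the treated arrays the difference was 1.09 (limma adjusted p = 1.25e-05). Acute-phase proteins and p53 targets had medians of 0.10 each, circadian clock genes −0.02, and metallothioneins with zinc transporters 0.00.

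The 10 expressed genes with the smallest p in each direction describe where the control groups stood furthest apart relative to the fitted spread. None was called, and as they were picked by p their control values are no independent evidence. The treated arrays contributed to that spread and carry the drug, so they cannot check a control difference. Inhibitors of DNA binding, which block basic helix-loop-helix factors and are raised by BMP signals, made up 3 of the 10 higher genes. Id3 read 1252, 1159 and 1174 in WT control and 2842, 2547 and 1922 in lsPERK control. Every lsPERK array exceeded every WT array, with a difference of 1.01 (SE 0.18, limma adjusted p = 0.263). With Xist status as a covariate the difference was 0.88 and Id3 was the 1 probe set called (0.00222% of all, with 5.46% at an unadjusted p under 0.05; limma adjusted p = 0.0425). It also passed on the Xist-high arrays alone (1.10, limma adjusted p = 0.0295), but not on the Xist-low arrays alone (0.72, limma adjusted p = 0.172). The 6 control arrays with Xist status as a covariate gave 0.91 (limma adjusted p = 0.622). Id1 read 392, 275 and 434 against 992, 1027 and 634, a difference of 1.26 (SE 0.27). Id2 read 2127, 2753 and 3457 against 4441, 4167 and 5496, a difference of 0.78 (SE 0.18), and its other expressed probe sets gave 0.56 and 0.28 with overlapping groups.

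The other higher genes had mixed roles. Socs3, the feedback inhibitor of cytokine receptors, read 266, 220 and 321 in WT control and 446, 705 and 882 in lsPERK control, a difference of 1.29 (SE 0.32); its other expressed probe sets gave 0.90 and 0.26. Gadd45g, a growth arrest gene, read 161, 105 and 120 against 162, 410 and 1221. Its difference of 1.78 (SE 0.48) rested on lsPERK replicates 2 and 3, and was 1.03 without replicate 3. Slc25a25, a carrier of adenine nucleotides into mitochondria, read 1262, 799 and 976 against 1230, 2236 and 1818, which overlap. Poldip3, a partner of DNA polymerase delta, differed by 0.49, and its other 4 expressed probe sets by 0.51 to 0.70. The kinase gene Frk differed by 0.80, but its other expressed probe sets gave 0.21 and 0.19 with overlapping groups. The betaine transporter Slc6a12 differed by 0.55 and the zinc finger gene Zfp869 by 0.91. In 9 of these 10 genes the groups did not overlap, a property that the choice by p favours.

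Among the 10 lower genes Eif2ak3 came first. Depp1, a gene induced by fasting and FOXO factors, read 3705, 5226 and 5614 in WT control and 1848, 988 and 1612 in lsPERK control, a difference of −1.74 (SE 0.37, limma adjusted p = 0.631), and its second probe set gave −2. Egr1, an immediate early transcription factor, read 1227, 936 and 1324 against 255, 762 and 519, a difference of −1.30 (SE 0.31), opposite to the median of its list. Grhpr, which detoxifies glyoxylate, read 6123, 5937 and 6586 against 3892, 3686 and 5079, a difference of −0.57 (SE 0.14). Vapb, a protein tethering the ER to other membranes, differed by −0.95, but its other expressed probe sets gave 0.02 and 0.11 with overlapping groups. Srd5a3, which makes dolichol for N-glycosylation, differed by −0.56, and its other 3 expressed probe sets by −0.46 to 0.07. Rpp21 of ribonuclease P differed by −0.78 and Taf1a of the RNA polymerase I factor SL1 by −0.75. Smlr1 differed by −0.60 and Tstd2 by −0.54.

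On the tunicamycin-treated arrays the difference had the sign of the control comparison in 11 of these 20 genes, 6 of the higher and 5 of the lower. Of the 10 higher in control, 2 were called higher and 3 lower in treated lsPERK liver, where 16.8% and 15% of expressed genes were called in those directions. Of the 10 lower in control, 2 were called lower and 3 higher. The called genes with the same direction were Socs3 (1.5) and Frk (0.77) among the former, and Eif2ak3 (−2.75) and Taf1a (−1.17) among the latter. Id3 turned: treated WT arrays read 7906 to 10471 and treated lsPERK arrays 1742 to 2896, a difference of −1.99 (limma adjusted p = 5.68e-07). Depp1 also turned, with 138 to 486 in treated WT and 1059 to 1801 in treated lsPERK, a difference of 2.40 (limma adjusted p = 9.92e-05). Egr1 read 1212 to 2043 in treated WT and 6494 to 9972 in treated lsPERK, a difference of 2.37 (limma adjusted p = 2.36e-05). Id1, at 0.60, and Id2, at 0.12, were not called there.

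**Figure D4:**
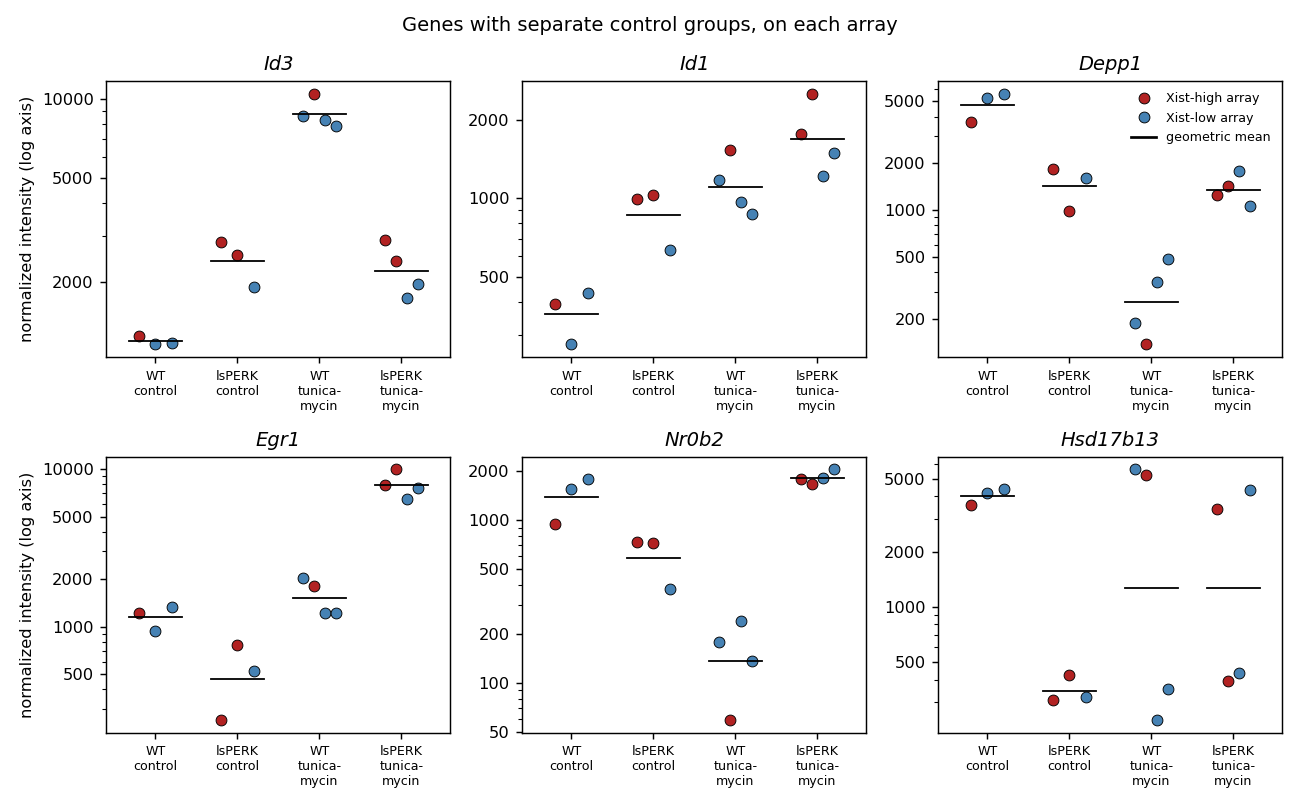
Normalized intensity (log axis) of Id3, Id1, Depp1, Egr1, Nr0b2 and Hsd17b13 on each array of the 4 groups, coloured by Xist status, with the geometric mean of each group as a bar. In each panel the control groups do not overlap; Id3, Depp1, Egr1 and Nr0b2 have the opposite order on the treated arrays, and Hsd17b13 has high and low arrays in both treated groups.

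Hsd17b13, an enzyme of hepatocyte lipid droplets, had the widest separation that held on all 6 control arrays. Its brightest probe set (1460606_at) read 3584, 4160 and 4381 in WT control and 311, 421 and 321 in lsPERK control, a difference of −3.53. It was the only probe set called when the 6 control arrays were fitted alone (0.00222% of all, limma adjusted p = 0.000218). It was not called in the fit of all arrays (limma adjusted p = 0.912). Without a variance trend the fit of the 6 control arrays alone called 0 probe sets (smallest limma adjusted p = 0.142). On the treated arrays WT samples read 5632, 5230, 240 and 353, and lsPERK samples 3423, 392, 432 and 4326, so both levels occurred in both genotypes. A second probe set (1425589_at) had no such split, with 726, 620 and 1033 in WT control and 813, 1191 and 1444 in lsPERK control.

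Among lists with more than 1 expressed gene, those that differ between male and female liver had the medians farthest from 0, and they moved with Xist status, which is unequal between the groups. The 17 expressed genes higher in male mouse liver had a median of −0.58 in lsPERK minus WT, and the 20 expressed genes higher in female liver a median of 0.64. With Xist status as a covariate these medians were 0.19 and 0.00. Leaving out WT control replicate 1 moved them to −1.31 and 1.23, and leaving out lsPERK control replicate 3 to −1.23 and 1.25, since either step removes the minority Xist status of a group. Hsd3b5, a steroid enzyme typical of male liver, read 16.3, 7313 and 8433 in WT control and 3.16, 32 and 2858 in lsPERK control. Its low readings were those of the Xist-high arrays. Cyp3a16, a P450 typical of female liver, read 2222, 1.35 and 0.552 against 2367, 2251 and 8.01, high where Xist was high. Neither was called, and their intervals span many doublings (−12.12 to 4.28 for Hsd3b5). Of the 27 pathway lists, 18 had a median within 0.1 of 0 and 21 within 0.2, and outside the sex-linked lists the medians ran from −0.18 to 0.37. Of the 20 genes picked by p, 9 of the 10 higher and 7 of the 10 lower were also picked when Xist status was a covariate.

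**Figure D5:**
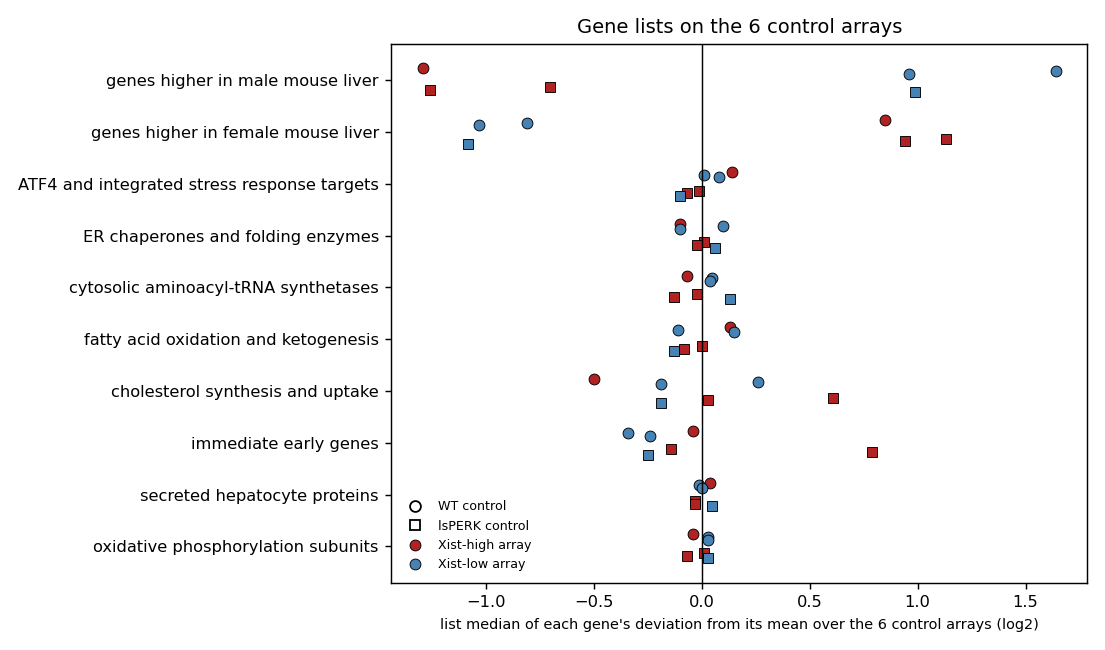
For 10 gene lists, the median over genes of the deviation from each gene's mean over the 6 control arrays (log2), with WT control arrays as circles, lsPERK control arrays as squares and Xist status by colour. The sex-biased lists split by colour and not by shape, immediate early genes are high on 1 lsPERK array (0.79), and the stress, secretory and oxidative phosphorylation lists stay near 0.

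Cell composition was described with 14 marker lists, since in bulk tissue fewer cells of a type and less RNA per cell cannot be told apart. The summed marker signal overlapped between the genotypes for all 14 lists, and 0 of their genes were called. The labelled tissue had its defining markers: the summed signal of 6 hepatocyte genes was 93737 to 101585 in WT control and 97379 to 99251 in lsPERK control. The 9 Kupffer cell and macrophage genes summed to 8649 to 24450 in WT and 7915 to 23615 in lsPERK, ranges that nearly matched but were wide. As a deviation from each gene's mean, their median was 0.22 to 0.81 on Xist-high control arrays and −0.85 to −0.05 on Xist-low ones. Their median genotype difference was 0.06, or −0.32 after adjustment for Xist status. Only 3 of these 9 intervals lay within 2-fold, so the matching ranges do not show equal macrophage signal. The 8 endothelial genes summed to 5926 to 9376 and 7488 to 9611. T and NK cell genes summed to 115 to 366 and 156 to 283, and of those Cd3d, Cd8a, Nkg7 and Gzma lay under the expression threshold. The summed erythroid signal was 137 to 3155 in WT and 122 to 382 in lsPERK, and was carried by Alas2, which read 3131 on 1 WT array; its part in the results above was not tested.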

How the data were processed

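Each probe set has an intensity from 0.0312 to 27760 in the authors' deposited values, made with the Affymetrix programs GCOS and MAS5 per the submitters' processing notes; for versions, scaling target and genome build: not given in the sources used here. Of 45101 probe sets, 64 controls were left out and 45037 tested. Log2 intensities of all 14 arrays were quantile normalized. limma 3.58.1 (R 4.3.3) fitted the 4 group means, with a variance trend in eBayes and 10 residual degrees of freedom, and p-values were Benjamini-Hochberg adjusted over all probe sets; calls are at an adjusted p under 0.05. Figures used Python with matplotlib. Probe sets were named from GEO's platform annotation: 34945 had 1 gene, 932 several and 9160 none. A gene is shown by its brightest single-gene probe set over 14 arrays. Gene lists (27 pathway and 14 marker lists; 589 of 656 entries matched), the genes named and the comparison were chosen with earlier results of these data known. Named genes were the 10 expressed genes with smallest p per direction, a fixed set of stress, secretory and sex-linked genes, and up to 4 members of each list with the smallest p; others named, such as Hsd17b13, were chosen after their values were seen. Levels are on the normalized scale. The number of arrays limits the precision. The fit was tested on simulated data. Alternatives covered normalization, filters, floor, variance models, covariates, subsets by Xist status, a replicate block and each array left out. Same-numbered control arrays correlated at −0.25 to 0.39 in their deviations, so the numbers were not taken as pairs.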

Additional observations from a re-analysis of the deposited data

Results flagged for a closer look

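The genotype difference under tunicamycin minus that under control was examined for 47 named genes and passed the limma interaction test in 23. Over all 45037 probe sets it passed in 3030 (6.73%). The 47 were chosen with earlier results of these data known, so their higher share is no independent evidence. Values are on the log2 scale, and they use the control arrays by which the 20 leading genes were picked, so for those genes the size is not independent of the choice. Among the leading genes it was −3.00 for Id3, −1.95 for Zfp869, −0.76 for Poldip3, −3.49 for Gadd45g, −1.48 for Eif2ak3, 4.14 for Depp1, 0.86 for Grhpr, 3.67 for Egr1, 1.55 for Rpp21 and 0.94 for Srd5a3. Among genes of the integrated stress response it was −2.75 for Ppp1r15a, −1.79 for Atf4, −3.67 for Ddit3, −4.54 for Atf3, −5.36 for Trib3, −4.75 for Chac1, −1.28 for Sesn2 and −4.16 for Fgf21. Among genes of the other ER stress arms it was −0.68 for Ern1, −0.66 for Xbp1, −0.53 for Hsp90b1, −1.54 for Sdf2l1 and −0.93 for Creld2.

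Of 48 groups of 4 treated arrays examined for a lone distant value, 1 held one: Eif2ak3 read 2420 on 1 WT tunicamycin array (replicate 2, an Xist-high array) and 1725 to 1767 on the other 3. Chance flags about 1 in 20 such groups. Groups of 3, which include both control groups, were not examined this way.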

How the results depend on the processing

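The count of called probe sets was 0 in the reported fit. It was 12 with values raised to the 25th percentile, all but 1 of them (Poldip3) under the expression threshold on the control arrays; 1 with the 6 control arrays alone (Hsd17b13), also with Xist status as an added covariate (1, an alternative chosen after seeing the data); 3 without a trend in the variance; 1 with Xist status as covariate (Id3); 37 within the Xist-low arrays and 19 within the Xist-high arrays, where a group holds 1 array that is assumed to vary like the others. With the 6 control arrays alone and no variance trend the count was 0, also an alternative chosen after seeing the data. With single arrays left out it was 0 to 2: Eif2ak3 without WT control replicate 1, a dim Nupr1 probe set and C1galt1 without WT control replicate 3, and Angptl8 and Scyl2 without lsPERK control replicate 3.

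The Eif2ak3 difference was −1.66 and called within the Xist-low arrays, and −1.52 to −1.08 with single arrays left out (limma adjusted p 0.0345 to 0.661). The number of genes limited to within 2-fold was 8584 to 9350 with single arrays left out and 7139 with the values as deposited. Without normalization the median of all expressed genes was 0.30, and the medians of the ATF4 list (0.23) and of the ER chaperones (0.31) moved with it; of the probe sets at an unadjusted p under 0.05, 90.9% were then higher in lsPERK, against 52.5%. With single arrays left out these list medians were −0.09 to −0.02 and −0.01 to 0.13, and those of male- and female-biased genes −1.31 to −0.21 and 0.16 to 1.25. With the replicate number as a block the count of calls was 0, Eif2ak3 was −1.27 and 9309 genes were limited to within 2-fold; it changed no call, and the numbers share no stated origin. Of 1497 values of 50 other named genes under the alternatives, 1418 kept their side and direction, 6 passed the threshold, 73 uncalled values moved and 0 called values turned. Signal near background limits the dim genes.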

Other observations

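Hsd17b13 was 1 of 157 probe sets, among 21930 expressed in control liver, whose 14 readings fell at 2 separate levels with a gap of at least 1.5 on the log2 scale and at least 3 arrays on each side. The levels followed Xist status in 20, treatment in 32, WT tunicamycin against the rest in 82, and none of these in 23. These are values on single arrays, shown with no test, and the genes were picked for their pattern.

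Psmd6, a regulatory subunit of the proteasome, read 2581, 2791 and 2526 in WT control and 2752, 2391 and 177 in lsPERK control, and 164 and 171 on lsPERK tunicamycin replicates 1 and 2. Adi1 of methionine salvage read 2985, 3270 and 3586 in WT control and 2364, 2501 and 86.1 in lsPERK control, with 48.1 to 59 on the treated lsPERK arrays and 59.1, 68.8, 2132 and 2231 on the treated WT arrays. Lipa, the lysosomal acid lipase, read 1527, 1425 and 163 in WT control and 139, 102 and 116 in lsPERK control. Cyp2c37, a P450 of hepatocytes, read 13665, 10919 and 153 in WT control and 604, 522 and 191 in lsPERK control. Pttg1, the securin of the cell cycle, read 1141, 934 and 4655 in WT control and 3933, 3779 and 4574 in lsPERK control. In the last 3 of these genes a single WT control array, replicate 3 each time, read with or near the lsPERK arrays. The low lsPERK control readings of Psmd6 and Adi1 were likewise both on replicate 3 of that group.

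Angptl8, a feeding-induced regulator of lipoprotein lipase, read 437, 637 and 668 in WT control and 1741, 2607 and 494 in lsPERK control, the last being the Xist-low lsPERK array. C1galt1, an enzyme of O-glycan synthesis, read 577, 680 and 225 in WT control and 220, 192 and 218 in lsPERK control. The low WT reading was again on replicate 3.

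Nnmt, which methylates nicotinamide, had the largest estimate among expressed genes whose lsPERK control arrays all exceeded the WT control arrays, at 2.36 (SE 0.76, limma adjusted p = 0.912). On the treated arrays its difference was −1.07 (limma adjusted p = 0.372).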
